A study of Rattus norvegicus with 23 samples.

Results

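Translation initiation and elongation factors are the proteins that bring the ribosome to an mRNA, start it at the right codon and move it along the coding sequence. Their mRNAs were measured on rat whole-genome arrays in peripheral blood mononuclear cells (PBMC), the lymphocytes, NK cells and monocytes of blood. The factors were taken by name: every array probe whose gene name starts with Eif1, Eif2b, Eif2s1, Eif2s2, Eif3, Eif4a, Eif4b, Eif4e, Eif4g, Eif4h, Eif5, Eif6 or Eef, without Eif4ebp1, that was well above background in the pup channel on at least 12 of 23 arrays. Of 67 probes for 40 genes with such names, 65 passed, and the brightest probe of each gene gave 38 factors, of 20754 features tested in all. All 38 were above background on 23 of 23 arrays. Eef1a2 and Eif5a2, above background on 3 and 4 of 23 arrays, are the matching genes that did not pass.

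The pups were Wistar rats of 21 days, the day of weaning, killed in the fed state. Control pups came from dams with free access to standard chow, and pups labelled CR came from dams on a 20% calorie-restricted diet from the first day after delivery to weaning; the pups themselves were not assigned a diet. Arrays came from 6 males and 6 females of the control group, and from 5 males and 6 females of the CR group. The labels give 11 control and 5 CR dams and do not tie pups to litters. The pups outnumber their dams in both groups, most of all in CR. Some pups therefore share a mother, and p-values over pups can be too small.

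In the textbook scheme, the initiator tRNA is carried to the small ribosomal subunit by the GTPase eIF2, which eIF2B recharges after each round, while eIF3 holds the subunit ready and eIF1 and eIF1A guard the choice of the start codon. The eIF4 proteins bind the cap and unwind the leader, eIF5 and eIF5B complete the joining of the large subunit, and eEF1 and eEF2 then deliver aminoacyl-tRNA and translocate the ribosome. Lymphocytes are known to raise this machinery strongly when they leave rest, and several elongation factor mRNAs carry a terminal oligopyrimidine (TOP) tract, a run of C and T that begins with C at the cap and couples their translation to growth signals.

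The bases around the annotated start of the known TOP mRNAs among the factors are shown because this tract is what sets that class apart. Promoter entries from RefSeq on the GRCr8 build were found for 34 of the 38 factors (no entry for Eef1d, Eif3e, Eif3h and Eif4b), and 5 of 9 known TOP factors had one. Each line runs 5′ to 3′ on the gene's strand from 10 bases before to 20 after the annotated start, with the longest run of at least 5 pyrimidines beginning with C in capitals.
Eef1a1, chr8:88225050-88225079, minus strand: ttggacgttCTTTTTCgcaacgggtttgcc
Eef1b2, chr9:72074081-72074110, plus strand: ggccggtcccggCCCTTTTTCTCCCTCagc
Eif3f, chr1:172369052-172369081, plus strand: cccttccgttctagCCTCTCTCTTTCTCgg
Eef1g, chr1:215289805-215289834, plus strand: ctgcggaatcaccatggcggctggggtaag
Eef2, chr7:9189219-9189248, minus strand: ccgcagccgccgccatcgtcggcgcgcttc

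Such a run was present for 3 of the 5 known TOP factors in this window. No run of at least 5 was found in the windows of Eef1g and Eef2. The window rests on the annotated start, which was not tested against the start used in these cells. A window without a run therefore does not show that the mRNA lacks the tract. Over all factors it was found in 10 of 34, or 29.4%, beside 33.6% of all 33469 promoter entries. On the other strand it occurred in 13 of 34 factors and 40.3% of entries. The units differ: the 34 factors had 37 entries, and a factor counted if any of its entries held a run. The 10 factors with a run had a median CR minus control difference of 0.056 in males and -0.017 in females on the log2 scale, and the 24 without one had medians of -0.023 and -0.010.

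Each array compared 1 pup, labelled with Cy5, with a pool of all samples labelled with Cy3, so a value is the log2 ratio of pup to pool. Between 20600 and 24074 of 41012 probes were well above background per array. Of the markers of the labelled cells, 14 of 15 T cell, 9 of 13 B cell, 9 of 9 NK cell and 9 of 10 monocyte markers were measured. So were 11 of 14 red cell precursor, 8 of 11 platelet and 6 of 11 neutrophil markers. A marker could be missing because its probes were dim or because no probe was matched to its name. CR female 5 and CR male 1 stood apart, with median correlations to the other arrays of 0.0655 and 0.158 against a median over arrays of 0.287. Differences in such bulk samples cannot tell fewer cells of a type from less RNA per cell.

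In the sons, none of the 38 factors differed between CR and control pups at an adjusted p under 0.05 by limma, and none of all 20754 features did (0%). At an unadjusted p under 0.05, 4 of 38 factors passed, beside 7.19% of all features. Eif5a, Eif2b1 and the kinase Eef2k were lower in CR males (4.07% of features were lower at that p) and Eif3e was higher (3.12%). With CR male 3 left out 1 factor had such a p, and with CR male 2 left out limma called 4 features, none of them a factor. Over the 38 factors the median difference was 0.025 in males with 20 higher and 18 lower, beside -0.0067 over all features. When arrays were centred on their median in place of loess, 37 of 38 factors were lower in CR males; that centring moved the median of all features to -0.186 and that of the factors to -0.448, which is -0.262 relative to all features. Under that centring 27 of 38 factors had an unadjusted p under 0.05 and still none was called.

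Eif5a encodes the hypusine-carrying factor that relieves ribosomes stalled on difficult peptide bonds such as runs of proline. Its probe lies at chr10:56760789-56760848 (rn4, the build of the array's positions). Log2 ratios in control males ran from 0.047 over a median of 0.19 to 0.34. The 5 CR males had -0.38, 0.18, -0.96, 0.17 and 0.018. CR males 1, 3 and 5 thus lay below every control male, the last by little, while CR males 2 and 4 lay inside the control range. The mean difference was -0.38 ± 0.14 (SE; 95% interval -0.67 to -0.10; adjusted p = 0.638). Without CR male 3 the difference was -0.19.

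Eef2k is the calcium-dependent kinase that phosphorylates eEF2 and slows elongation. Control males ranged from -0.28 over -0.060 to 0.084, and the CR males had -0.64, -0.34, -0.86, -0.15 and 0.18. CR males 1, 2 and 3 were below all control males and CR male 5 was above them. The difference was -0.31 ± 0.15 (SE, adjusted p = 0.691), and -0.18 without CR male 3. A second Eef2k probe gave -0.10 in the same comparison.

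Eif2b1, the alpha subunit of the eIF2B exchange factor, had log2 ratios from -0.016 over 0.081 to 0.21 in control males and of -0.097, 0.082, -0.22, -0.11 and -0.25 in CR males. Only CR male 2 lay within the control range. The difference was -0.20 ± 0.084 (SE, adjusted p = 0.654). Eif3e, a subunit of eIF3, went the other way: control males ranged from -0.32 over -0.19 to 0.0073, and CR males had 0.38, 0.068, -0.15, -0.017 and -0.021. The difference was 0.22 ± 0.10 (SE, adjusted p = 0.691); it was 0.14 without CR male 1, and -0.22 when arrays were centred on their median in place of loess.

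In the daughters, again none of the 38 factors and none of the 20754 features (0%) was called by limma. At an unadjusted p under 0.05, 2 of 38 factors passed, or 5.26%, beside 4.65% of features (1.99% higher and 2.66% lower), and both were lower in CR. Without control female 3, or without CR female 5, neither had such a p. Eif3d, the eIF3 subunit known to bind the cap of some mRNAs, ranged from 0.16 over 0.22 to 0.35 in control females and from -0.091 over 0.13 to 0.18 in CR females. The ranges overlapped between 0.16 and 0.18. The difference was -0.14 ± 0.062 (SE, adjusted p = 0.996), it was below 0 within 6 of 6 slides, and a second Eif3d probe gave -0.094.

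Eef2, the translocase of elongation, was measured on 20 arrays, since its spot was marked as an outlier on 3. Control females had 0.56, 0.97, 0.45, 0.56 and 0.56, and CR females had 0.50, 0.34, 0.62, 0.046 and -0.10. Control female 3 was the highest and CR females 5 and 6 the lowest of these. The difference was -0.34 ± 0.16 (SE, adjusted p = 0.996). Eif3b and Eif2b4, next in order, were lower in CR females by -0.18 ± 0.11 and -0.12 ± 0.072 (SE; adjusted p = 0.996 for each).

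Averaged over the sexes, 4 of 38 factors had an unadjusted p under 0.05, beside 7.33% of features (2.47% higher and 4.87% lower), and none of the factors and none of the features (0%) was called by limma. All 4 were lower in CR. They were Eif3d at -0.13 ± 0.045, Eif5a at -0.27 ± 0.096, Eef2 at -0.26 ± 0.11 and Eif2b1 at -0.13 ± 0.058 (SE), with adjusted p from 0.589 to 0.667. Without CR male 3 the value of Eif5a was -0.18. Without CR male 2, limma called 3 features in this comparison, none of them a factor, and without CR female 1 it called 1. No factor had CR and control values that did not overlap in either sex; 0.4% of all features did in males and 0.193% in females. B cell markers were lower in CR beside these factors: 9 of 9 measured were lower in males and 8 of 9 in females, with medians of -0.43 and -0.32, and none was called. Their summed level per array, as a mean log2 ratio, ran from -0.64 to 0.11 in CR males and from -0.086 to 0.61 in control males. In CR females it ran from -0.30 to 0.24 and in control females from 0.014 to 0.78. Neutrophil markers were higher in CR: 6 of 6 measured were higher in males and 5 of 6 in females, with medians of 0.23 and 0.28, and none was called. Their summed level ran from -0.14 to 0.28 in CR males, -0.54 to 0.32 in control males, -0.38 to 1.01 in CR females and -0.37 to 0.40 in control females. The part of both lists in the factors' values was not tested.

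Whether the diet difference itself differed between sons and daughters was tested as an interaction. No factor had an unadjusted p under 0.05, beside 4.67% of features (1.96% higher and 2.71% lower), and limma called no feature (0%). The widest gap in size was that of Eef1e1, with 0.39 in males and -0.058 in females (difference 0.45 ± 0.35 SE, adjusted p = 0.936). The smallest unadjusted p was that of Eif1b, an eIF1 paralog, with -0.081 in males and 0.11 in females (difference -0.19 ± 0.12 SE, adjusted p = 0.936). That difference turned to 0.057 with Cy5 alone. Eif1b was higher in CR females within 6 of 6 slides.

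**Figure D1:**
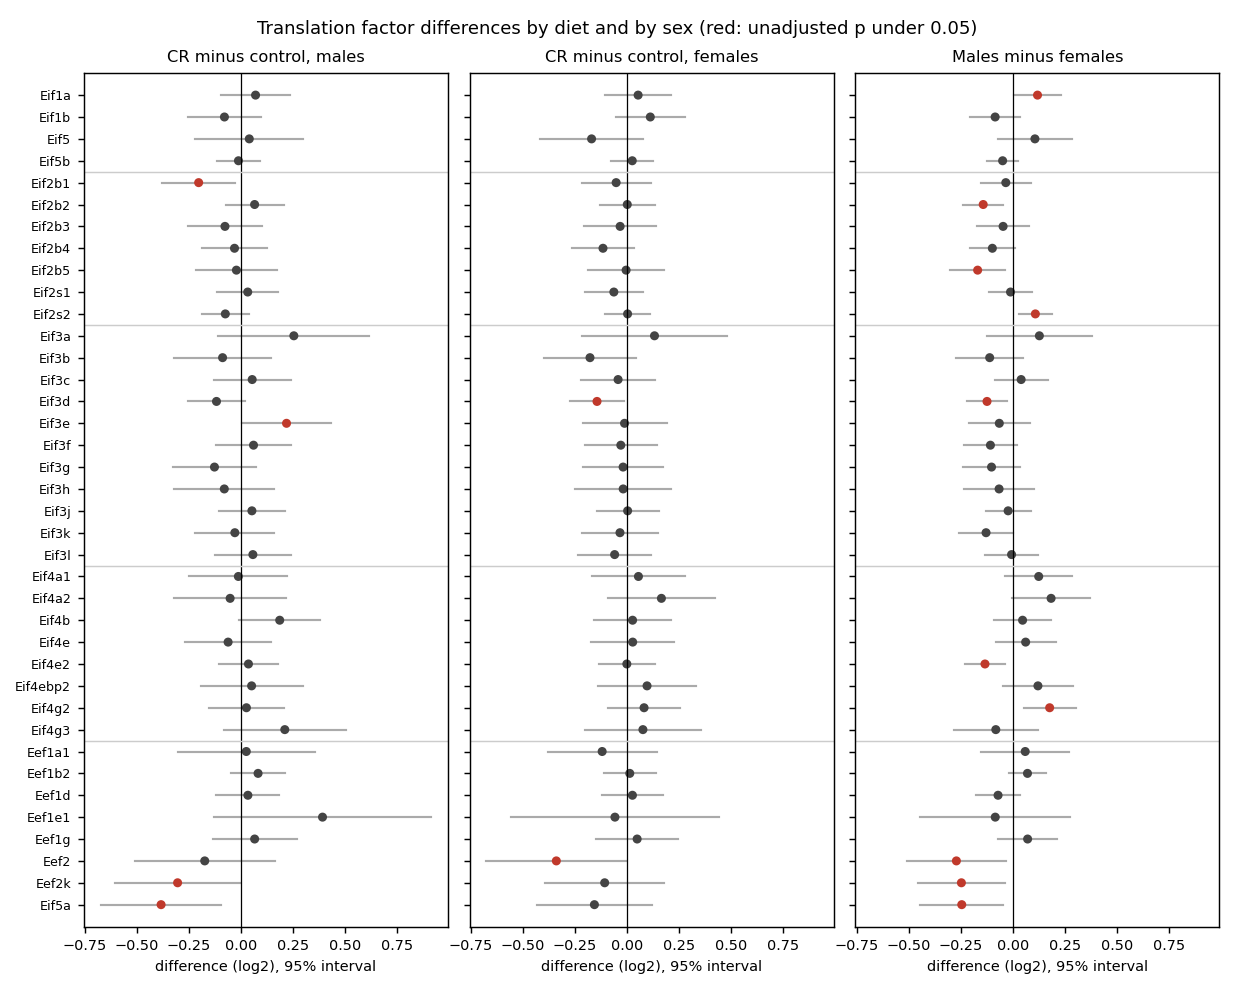
Differences (log2, points) with 95% intervals (lines) for the 38 factors, for CR minus control in males (left), CR minus control in females (middle) and males minus females (right); rows run from start codon factors at the top through eIF2 and eIF2B, eIF3 and eIF4 to elongation at the bottom, and red marks an unadjusted p under 0.05. Of the diet differences, 4 are red in males and 2 in females, and 10 of the sex differences are red.

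By role, the factors of start codon choice and subunit joining (Eif1a, Eif1b, Eif5 and Eif5b) had a median CR minus control difference, averaged over the sexes, of 0.011. The 7 subunits of eIF2 and eIF2B had a median of -0.037 with 6 lower. The 11 subunits of eIF3 had a median of -0.0018 with 5 higher and 6 lower. The 8 genes of the eIF4 group had a median of 0.055 with 7 higher by the probe used. They include Eif4e, which binds the cap, the helicases Eif4a1 and Eif4a2, and Eif4ebp2 (0.073), a repressor that binds eIF4E. All but Eif4a2 had several probes, and each of those genes had differences of both signs, such as -0.25 to 0.069 for Eif4a1. The 8 genes placed with elongation, the Eef genes and Eif5a, had a median of -0.0093. They include the kinase Eef2k (-0.21) and Eef1e1 (0.17), a tRNA synthetase scaffold. Of the elongation factors proper, Eif5a was lowest at -0.27 and Eef1g highest at 0.057. The signs depend on the scaling: with arrays centred on their median in place of loess, 38 of 38 factors were lower in CR with a median of -0.224, while the median of all features was -0.0993. Relative to all features that is -0.125 for the factors together; the roles were not set against all features under that centring.

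Some factors were named for their step of translation, whatever their values. Averaged over the sexes, CR minus control was -0.018 ± 0.069 for the cap-binding protein Eif4e, 0.021 ± 0.078 for Eif4a1, -0.016 ± 0.049 for Eif2s1 (the eIF2 subunit that stress kinases phosphorylate), -0.014 ± 0.064 for Eif2b5 (the catalytic eIF2B subunit) and -0.048 ± 0.10 for Eef1a1, the carrier of aminoacyl-tRNA (SE). Eif3a, the scaffold of eIF3, was at 0.19 ± 0.12 (SE, adjusted p = 0.791), and its further probes gave 0.032 and 0.14. Eif5a and Eef2, named in the same way, had the larger differences given above, -0.27 and -0.26. Array by array, Eif4e ran from -0.30 in control female 3 to 0.38 in control male 5. Eif2s1 ran from -0.24 in CR female 1 to 0.19 in CR male 1. Eef1a1, Eef1g and Eef2 each lacked 3 arrays whose spot carried an outlier mark, and Eef1a1 had values from 3 CR males.

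**Figure D2:**
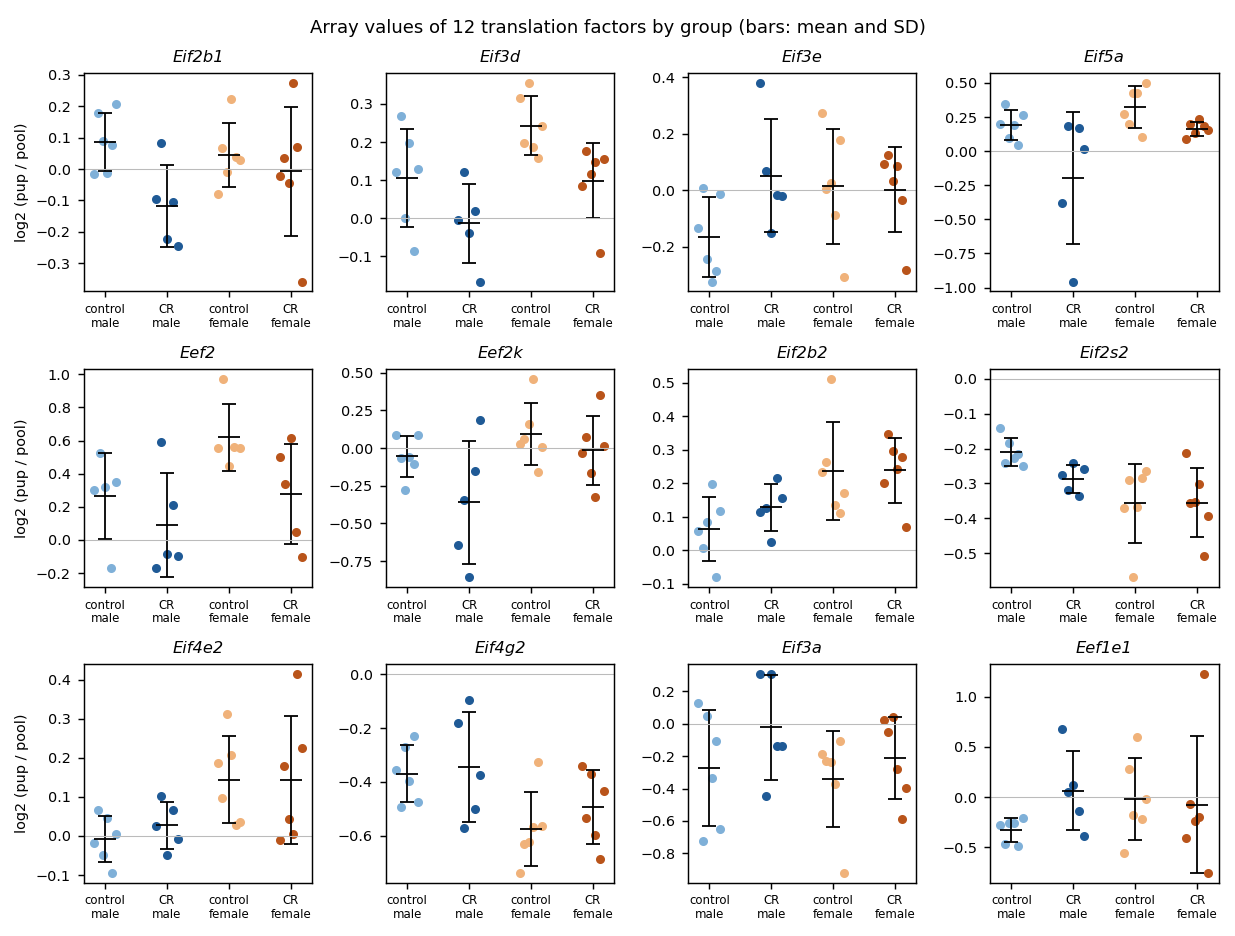
Log2 ratio of pup to pool (vertical axis) of 12 factors in the 4 groups (horizontal axis), with 1 point per array and bars for mean and SD. CR males 1 and 3 are the lowest points of Eif5a at -0.38 and -0.96, and CR female 5 is the highest point of Eef1e1 at 1.22.

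Between the sexes, none of the 38 factors was called by limma, beside 12 of 20754 features (0.0578%). At an unadjusted p under 0.05, 10 of 38 factors passed, or 26.3%, beside 7.38% of features. Of these, 7 were lower in males (Eef2, Eef2k, Eif2b2, Eif2b5, Eif3d, Eif4e2 and Eif5a) and 3 were higher (Eif1a, Eif2s2 and Eif4g2), beside 3.73% and 3.65% of features. Over all factors the median of males minus females was -0.048, with 14 higher and 24 lower, beside -0.0011 over all features. With median centring in place of loess 5 were higher and 33 lower, with a median of -0.132 beside -0.0276 over all features. With Cy5 alone 17 were higher and 21 lower, with a median of -0.00486 beside 0.00401 over all features. Several marker lists were lower in males as well, with none called: 9 of 9 B cell markers (median -0.16), 11 of 11 red cell precursor markers (-0.38), 6 of 6 neutrophil markers (-0.12), 8 of 9 monocyte markers (-0.11) and 7 of 8 platelet markers (-0.31). Of 72 ribosomal protein genes 58 were higher in males (median 0.073), 16 of them at an unadjusted p under 0.05. The part of these lists in the factors' values was not tested.

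Eif2b2, the beta subunit of eIF2B, had the smallest p. It ranged from -0.080 over 0.11 to 0.22 in the 11 males and from 0.069 over 0.24 to 0.51 in the 12 females, and the sexes overlapped over much of that range. The difference was -0.14 ± 0.046 (SE, adjusted p = 0.664), below 0 within 4 of 6 slides. Eif4e2, a cap-binding homolog of Eif4e that can block initiation, ran from -0.094 over 0.0042 to 0.10 in males and from -0.0095 over 0.14 to 0.41 in females. Its difference was -0.13 ± 0.047 (SE, adjusted p = 0.664), below 0 within 6 of 6 slides.

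Eif2s2, the beta subunit of eIF2, ran from -0.34 over -0.24 to -0.14 in males and from -0.57 over -0.36 to -0.21 in females. The difference was 0.11 ± 0.038 (SE, adjusted p = 0.664), above 0 within 6 of 6 slides, and -0.052 when arrays were centred on their median in place of loess. Its further probes gave 0.070 and 0.00054. Eif4g2, the eIF4G relative that lacks the cap-binding part and serves cap-independent initiation, ran from -0.57 over -0.37 to -0.096 in males. In females it ran from -0.74 over -0.57 to -0.33. Its difference was 0.18 ± 0.060 (SE, adjusted p = 0.664), above 0 within 6 of 6 slides. That difference ran from 0.00949 to 0.448 under other settings, and from 0.053 to 0.21 over its 5 probes. Eif2s2 and Eif4g2 were both higher in males as groups by the probe used, yet male and female values overlapped for each. The remaining subunit of eIF2, the X-linked Eif2s3, was outside the names searched and was called: males minus females was -0.50 ± 0.058 (SE, adjusted p = 3.48e-05).

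The factors varied between pups of a group somewhat more than a typical feature, with a median within-group SD of 0.153 log2 units beside 0.137 over all features, and 27 of 38 lay above that median. The lowest SDs were those of Eif5b (0.0725), Eif2s2 (0.0816) and Eef1b2 (0.0980), and the most variable were Eef1e1 (0.448), Eif3a (0.309) and Eef2 (0.274). The Eif5b probe was the dimmest of the 38, with a mean Cy5 intensity of 120 beside 8235 for Eif2s2 and 20220 for Eef1b2. Factors and features were not matched for brightness, and its part in these SDs was not tested. An Eif4b probe printed 10 times per array had an SD over its spots of 0.0431 in the median array (0.0263 to 0.116), beside 0.145 between arrays of a group. Over all 263 probes printed 10 times the median within-array SD was 0.0805.

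Eef1e1, despite its name, encodes a scaffold protein of the multi-tRNA synthetase complex. It ran from -0.48 over -0.27 to -0.21 in control males, was 0.68, 0.049, 0.12, -0.14 and -0.39 in CR males, ran from -0.56 over -0.10 to 0.60 in control females and from -0.75 over -0.22 to 1.22 in CR females. The high arrays were CR female 5, CR male 1 and control female 4, from 3 different groups. Across the 23 arrays it followed the mean of 11 red cell precursor markers, which ranged from -1.61 in control male 2 to 1.60 in CR female 5. Pearson's r was 0.88 and Spearman's rho 0.878 (permutation p = 1e-05 for both, the smallest that 100000 permutations can give; adjusted over 342 relations of 38 factors with 9 lists, 0.00171 and 0.00342). It was 0.772 without the 2 arrays farthest from the median, 0.873 within groups and 0.896 within slides, and between 0.819 and 0.951 under 6 other settings. The red cell precursor markers themselves had a median CR minus control difference of 0.66 in males and -0.29 in females, with none called, and their part in the Eef1e1 values was not tested.

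Of those 342 relations 3 passed the adjustment. Eef1b2, the nucleotide exchange subunit of eEF1 whose pyrimidine run is printed above, followed the mean of 72 ribosomal protein genes, most of which are TOP mRNAs too (r = 0.808, permutation p = 1e-05, adjusted 0.00171; rho = 0.767, permutation p = 4e-05, adjusted 0.00684). That r was 0.676 without the 2 farthest arrays, 0.765 within groups and 0.804 within slides. It was weaker under other ratios, at 0.366 with the scanner software's log ratio and 0.21 with Cy5 alone. Eif4g2 ran against the monocyte markers (r = -0.722, permutation p = 0.00017, adjusted 0.0194; rho = -0.757, permutation p = 9e-05, adjusted 0.0103), with -0.679 without the 2 farthest arrays, -0.709 within groups and -0.755 within slides. That relation turned to 0.305 with median centring in place of loess.

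**Figure D3:**
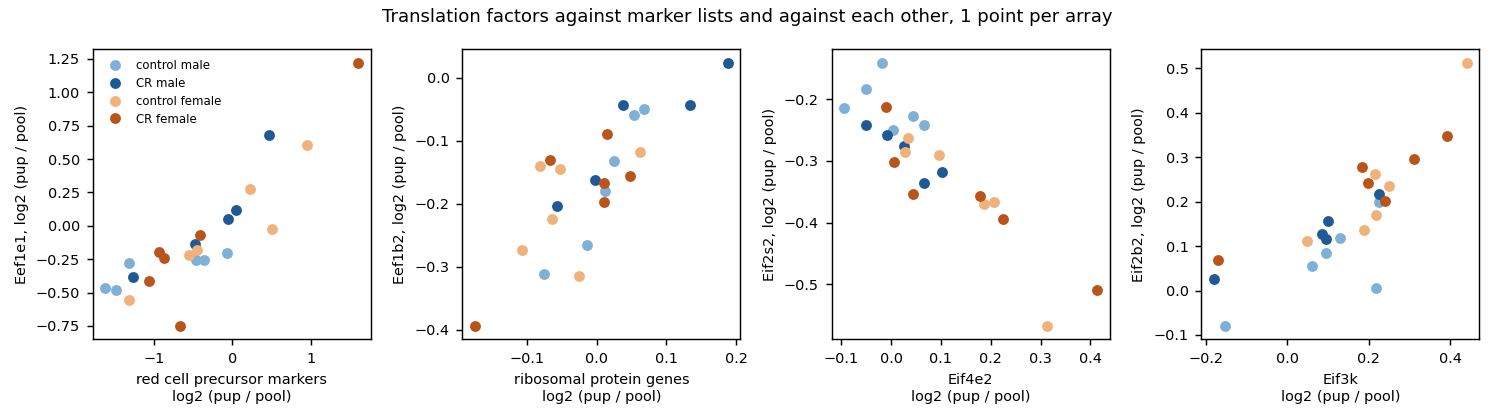
Log2 ratio of a factor (vertical axis) against the mean log2 ratio of a gene list or the log2 ratio of another factor (horizontal axis), 1 point per array coloured by group. Eef1e1 rises with red cell precursor markers (r = 0.88) and Eef1b2 with ribosomal protein genes (r = 0.808), Eif2s2 falls as Eif4e2 rises (r = -0.898, but 0.814 with median centring in place of loess), and Eif2b2 rises with Eif3k (r = 0.824).

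Among the factors, the median correlation within groups was 0.0404 over 703 pairs, beside -0.001 over pairs of all features. Of the factor pairs 7.54% exceeded 0.5, beside 3.95% of pairs of all features. All pairs share the pool channel and the normalization of their array. Across arrays 50 of 703 pairs passed the adjustment over 703, with 34 positive and 16 negative, and 32 did so by rho too. The tightest positive pair was Eif2b2 and Eif3k, an eIF2B and an eIF3 subunit (r = 0.824, permutation p = 1e-05, adjusted 0.00141; rho = 0.801, permutation p = 1e-05, adjusted 0.00234; 0.739 without the 2 farthest arrays, 0.832 within groups, 0.815 within slides). It was between 0.711 and 0.964 under the other scalings.

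A second group joined Eif3g, Eif3h and Eif2b1. Eif3h and Eif3g had r = 0.804 (permutation p = 2e-05, adjusted 0.00201; rho = 0.736, permutation p = 0.00016, adjusted 0.0125), and 0.707 without the 2 farthest arrays, 0.80 within groups and 0.808 within slides. Eif2b1 and Eif3h had r = 0.79 (permutation p = 1e-05, adjusted 0.00141; rho = 0.611, permutation p = 0.00236, adjusted 0.0488). Under 6 other settings r ran from 0.471 to 0.919 for Eif3h with Eif3g and from 0.372 to 0.921 for Eif2b1 with Eif3h. CR female 6 was the lowest array of Eif3g, Eif3h, Eif2b1 and Eef1a1 alike, and it was also the lowest for the mean of the T cell markers at -0.307. With those markers Eif3h had r = 0.646 and Eef1a1 r = 0.647 (permutation p = 0.00084 and 0.00252, adjusted 0.0575 and 0.0988), which do not pass.

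The strongest negative pair was Eif2s2 and Eif4e2 (r = -0.898, permutation p = 1e-05, adjusted 0.00141; rho = -0.876, permutation p = 1e-05, adjusted 0.00234; -0.821 without the 2 farthest arrays, -0.865 within groups, -0.915 within slides). It was negative under 5 of 6 other settings and was 0.814 under the remaining one, median centring in place of loess. This relation is that of the brightest Eif2s2 probe. The further Eif2s2 probes correlated with it at 0.273 and 0.14 and were not tested against Eif4e2. Eif4g2 and Eif5a opposed each other as well (r = -0.736, permutation p = 1e-05, adjusted 0.00141; rho = -0.767, permutation p = 4e-05, adjusted 0.00562; -0.732 within groups, -0.72 within slides), and that pair was 0.511 with median centring.

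**Figure D4:**
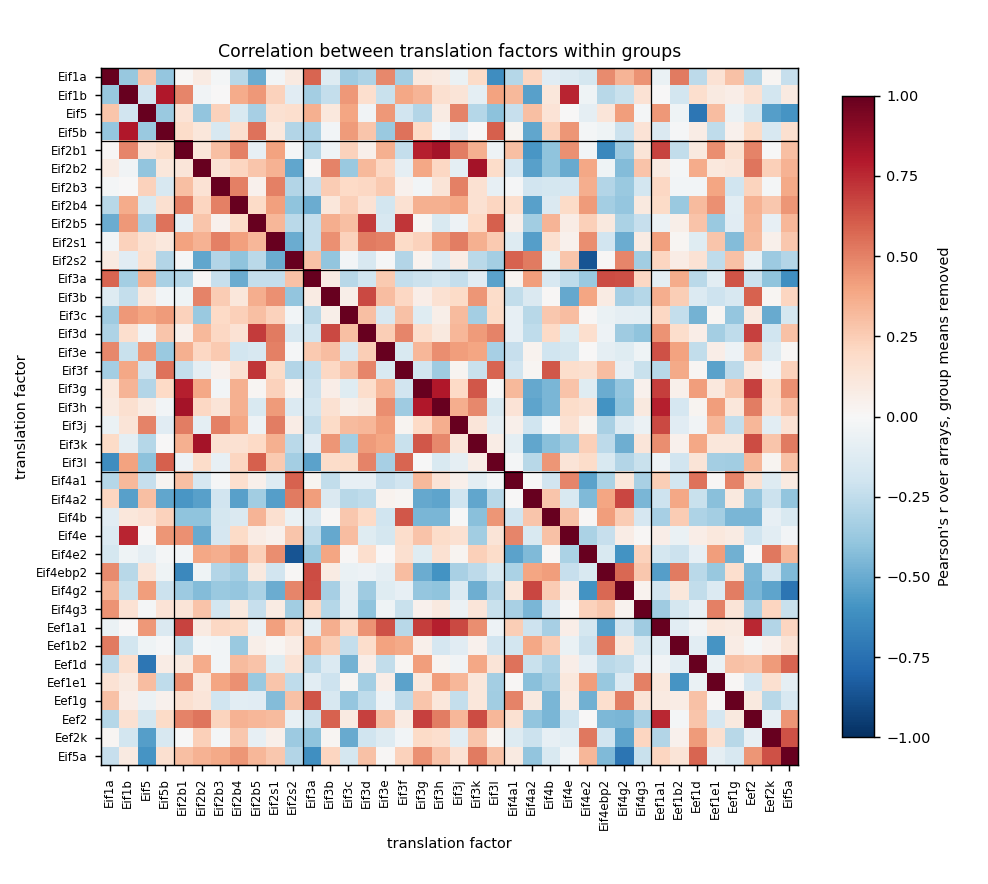
Pearson's r between each pair of the 38 factors over 23 arrays after the group means were removed (colour, from -1 in blue to 1 in red), with factors in the same role order on both axes and lines between roles. The darkest cells off the diagonal are Eif2s2 with Eif4e2 at -0.865, a pair whose sign turned with median centring, and Eif2b2 with Eif3k at 0.832.

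For 15 factors several probes were above background, and these did not always tell the same story. Of 27 further probes, 8 correlated above 0.5 with the probe used, and the correlations ran from -0.40 to 0.777 with a median of 0.312. In males the CR minus control difference had both signs among the probes of 10 of 15 genes, and in females of 6 of 15. Averaged over the sexes it did so for 9 of 15. Eif4a1 gave -0.60 to 0.16 over its 5 probes in males, Eif4b -0.38 to 0.18 over 4, and Eif4g2 -0.077 to 0.54 over 5.

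The widest gaps between probes were most frequent on a few arrays. After each further probe's difference to the probe used was centred on its median, it exceeded 0.5 log2 units for 8 probes on CR male 1, for 6 each on CR male 3, control female 1 and CR female 6, and for 5 on control female 3, while 11 of 23 arrays had none. For Eif4g2, the probe at chr1:168833523-168833582 (rn4) read 1.51 on CR male 1, 1.26 on CR male 3, 0.88 on control female 1 and 0.69 on control female 3, and from -0.46 to 0.51 elsewhere. The probe used, at chr1:168829179-168829238, read -0.18, -0.096, -0.74 and -0.62 on those 4 arrays. For Eif4a1, the probe at chr10:56484827-56484886 read -0.93, -0.88 and -1.09 on CR males 1, 2 and 3, where the probe used read -0.39, -0.092 and -0.30. Low correlations also occurred without such gaps. The further probes of Eif2s2 exceeded 0.5 log2 units on no array, yet had r of 0.273 and 0.14 with the probe used. The files do not say which transcript forms the probes cover.

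**Figure D5:**
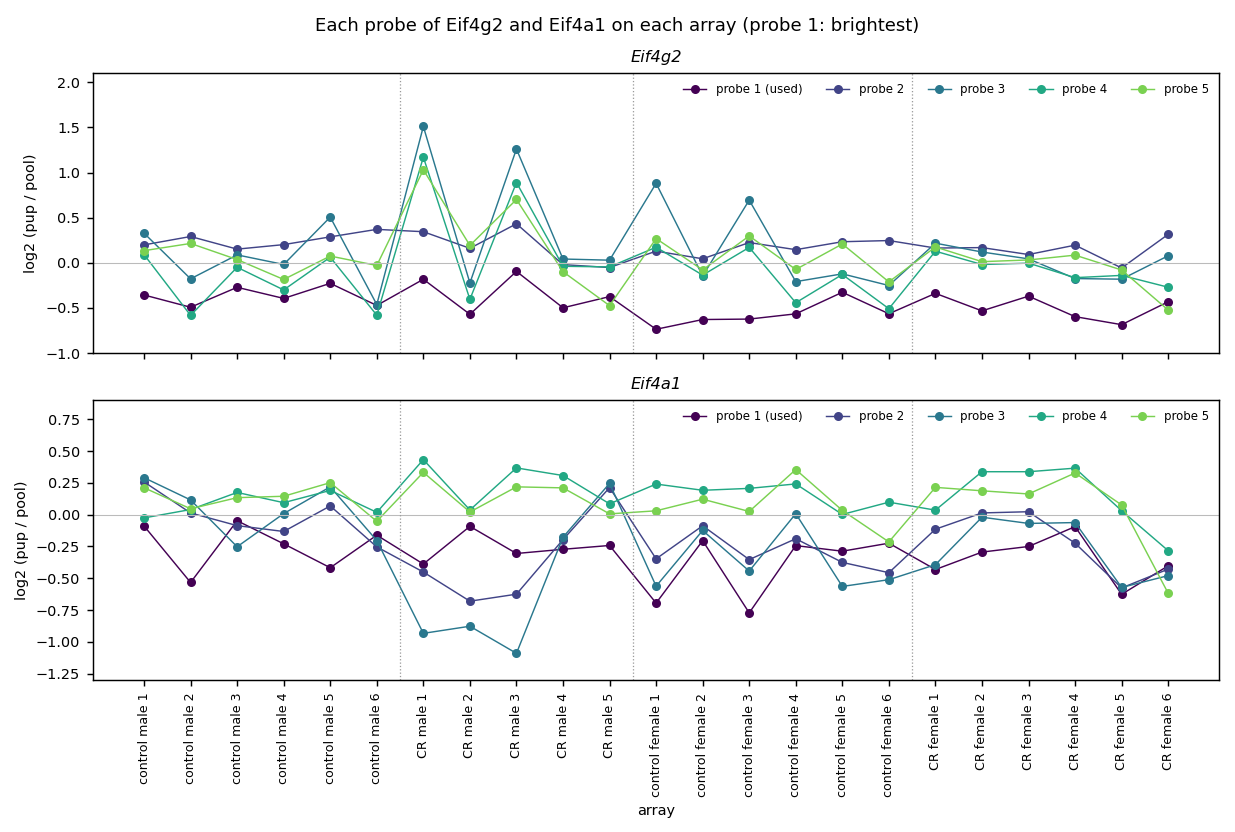
Log2 ratio of pup to pool (vertical axis) of each of the 5 probes of Eif4g2 (top) and Eif4a1 (bottom) on the 23 arrays (horizontal axis, dotted lines between groups), numbered by brightness. Probe 3 of Eif4g2 peaks at 1.51 and 1.26 on CR males 1 and 3, and probe 3 of Eif4a1 reads -0.93, -0.88 and -1.09 on CR males 1, 2 and 3.

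Of 23 listed regulators of initiation and elongation, 19 were measured and none was called by limma for diet or sex. In males 2 of 19 were higher and 3 lower at an unadjusted p under 0.05, beside 3.12% and 4.07% of features. Averaged over the sexes 1 was higher and 1 lower, beside 2.47% and 4.87% of features; both are named here after their values were seen. Ppp1r15b, which recruits the phosphatase that restores eIF2, was higher in CR (0.13 ± 0.049 SE, adjusted p = 0.589). Larp1, which binds and represses TOP mRNAs, was lower (-0.19 ± 0.075 SE, adjusted p = 0.589). Of 16 other translation factors 14 were measured and none was called for diet; 1, the release factor Gspt1, had an unadjusted p under 0.05 over the sexes (0.13 ± 0.065 SE, adjusted p = 0.679). The 9 known TOP mRNAs among the factors had medians of 0.059 in males and -0.012 in females, and the 72 ribosomal protein genes had 0.066 and 0.031, with none called.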

How the data were processed

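Each of 23 arrays held the Cy5-labelled RNA of 1 pup and a Cy3-labelled pool of all samples, with no dye swap. The spot intensities of both channels are as deposited by the authors, and the submitters' processing notes name Agilent Feature Extraction 10.5.1.1 as the software. The deposited log10 ratios of Cy5 over Cy3 were background-subtracted and dye-normalized by the same software, per the file headers. A deposited table of log2 levels has 22920 probes and a median of 7.23 in every column; its columns correlate at 0.981 to 0.99 with the Cy5 signal of the same array, and its centring and scaling steps are not given in the sources used here.

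Intensities were corrected with normexp (offset 50) and loess in limma 3.58.1 (R 4.3.3), leaving out spots marked as outliers and averaging spots of a probe. Probes well above background on at least 50% of the arrays of a group were kept (23692 of 41012), with the brightest probe per gene, named through RefSeq where 19703 probes matched. A model of 4 group means gave 5 contrasts, with Benjamini-Hochberg adjustment over 20754 features; the threshold for a call was an adjusted p of 0.05. Every adjusted p of a contrast is limma's; correlations have two-sided permutation tests. The script was tested on simulated data. The number of arrays limits the precision.

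Named factors are, in each contrast, the 4 with the smallest unadjusted p, the 3 most and 3 least variable within groups, and 1 or more per step of translation whatever their values. The factors and gene lists were chosen with earlier results of these data known. Other backgrounds, scalings, channels, filters, probes, blocks and weights were tried, as was leaving out each array.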

Additional observations from a re-analysis of the deposited data

Results flagged for a closer look

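In 7 of 87 groups of values examined for the named factors, 1 array lay farther from the rest of its group than Dixon's 95% limit for its size. That limit is passed by about 1 in 20 independent groups of normal values. The named factors include the 3 most variable within groups, and the groups share arrays. The 7 of 87 can therefore not be set against that rate. CR female 5 accounts for 3 of the 7 groups: Eef1e1 at 1.223 against -0.068 for the next array, Eef1b2 at -0.394 against -0.197, and Eif3d at -0.091 against 0.086. This array also had the highest mean of red cell precursor markers (1.60), the lowest mean of ribosomal protein genes (-0.175) and the lowest median correlation with the other arrays (0.0655).

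Control female 3 accounts for 2 more, with Eef2 at 0.974 against 0.559 and Eif2s2 at -0.568 against -0.369. Eif3a was -0.919 in control female 6 against -0.371 in the next array. Eif2b4 was 0.297 in CR male 2 against -0.032.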

How the results depend on the processing

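No factor was called in any of the 5 contrasts under 12 other settings or with any of 23 arrays left out. Of 26 named differences, 18 kept their direction under all 12 settings and 21 with every array left out in turn. With median centring in place of loess the median over the factors moved to -0.448 in males, -0.224 over the sexes, -0.429 for the interaction and -0.132 between the sexes; Eif3e became -0.221 in males and -0.186 in the interaction, Eif4a1 -0.222, Eif3a -0.0358 and Eif2s2 -0.0516 between the sexes. The same centring gave correlations of 0.814 for Eif2s2 with Eif4e2, 0.511 for Eif4g2 with Eif5a and 0.305 for Eif4g2 with monocyte markers. Averaged over the sexes, scale normalization gave -0.181 for Eif4a1 and 0.105 for Eif2b5, Cy5 alone 0.0511 for Eif4e (and 0.0571 for the Eif1b interaction), the deposited log2 levels 0.0316 for Eif2b5, the mean of all probes 0.0261 for Eif4e and -0.0524 for Eif4a1, array weights -0.0295 for Eif4a1 and 0.0326 for Eif2b5, and leaving out both arrays that stand apart 0.00461 for Eif4e and 0.0201 for Eif2b5. The causes of these changes were not tested.

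Features called between the sexes were 6 when probes had to be above background on all 23 arrays, where fewer were tested, and 10 to 12 with 1 array left out. Array weights called 2 features over the sexes. With 1 array left out, 0 to 4 features were called in males and 0 to 3 over the sexes, where Eef1a1 ran from -0.126 to 0.000798, Eif4e from -0.0521 to 0.0128, Eif4a1 from -0.0163 to 0.0482, Eif2s1 from -0.0363 to 0.00693 and Eif2b5 from -0.0396 to 0.0146. With a replicate block 1 feature was called in males; same-numbered arrays had correlations over 0.1 in 14 of 33 pairs (-0.413 to 0.464), so the numbers were not taken to pair pups. Correlations under other settings were chosen after seeing the data. Signal over background limits Eef1a2 and Eif5a2, which were not described.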
